A study of Mus musculus with 6 samples.

Results

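The nuclear genes of oxidative phosphorylation were followed in telencephalon, the part of the embryonic forebrain that gives rise to the cerebral cortex and basal ganglia. Members were all gene symbols of the deposited table that begin as Ndufa, Ndufb, Ndufc, Ndufs or Ndufv with a number, as Sdha to Sdhd, as Uqcr, as Cox4 to Cox8 or as Atp5, with processed pseudogene symbols left out. This gave 84 of 24444 symbols, of which 79 passed the filter on low values and were tested. By complex there were 35 genes of complex I, 4 of complex II, 8 of complex III, 20 of complex IV and 15 of complex V. Ndufa4 and Ndufa4l2 were placed in complex IV, where the Ndufa4 protein sits. Atp5s and Atp5sl matched by name but are not counted as subunits of ATP synthase. The table holds 3 libraries labelled as homozygous Arl13b mutants (Arl13b-/-, here Arl13b-null 1 to 3) and 3 labelled wild-type (1 to 3), all poly(A) RNA from E12.5 embryos of strain C57BL/6J. Arl13b is a ciliary GTPase, and the question of the series is how neuronal cilia bear on the growth of axon tracts. The labels give neither the type of allele nor whether each library came from its own embryo, so p-values reflect no more than the spread among 6 libraries, part of which may be technical.

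Oxidative phosphorylation makes most of the ATP of a neuron at the inner mitochondrial membrane. Complexes I and II pass electrons from NADH and succinate to ubiquinone, complex III hands them to cytochrome c, and complex IV passes them to oxygen, while complexes I, III and IV pump protons that drive the ATP synthase, complex V. Dividing neural progenitors are known to lean on glycolysis more than the neurons they produce, and mitochondrial content grows as neurons mature. Most subunits are encoded in the nucleus, and several subunits of complex IV and the c subunit of complex V exist as forms encoded by separate genes. In bulk RNA, fewer cells of a type and less RNA per cell cannot be told apart.

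The libraries held normalized counts summing to 28300000, 36200000 and 29200000 in Arl13b-null 1 to 3, and 27700000, 27500000 and 27900000 in wild-type 1 to 3. These sums are not depth. Estimated depth ran from 27600000 reads in Arl13b-null 2 to 51700000 in wild-type 1, which limits precision for low genes. Arl13b itself, which checks the labels, had 492, 532 and 564 normalized counts in Arl13b-null 1 to 3, against 661, 553 and 560 in wild-type 1 to 3. Its level did not separate the groups (log2 difference −0.14 ± 0.20 SE, limma adjusted p = 0.990), so these counts do not tell mutant from wild-type, and an allele that leaves the transcript in place was not tested. Arl13b-null 2 and wild-type 1 stood apart from the other 4 libraries. Taken from the wild-type 2 and 3 average, the median of 24 cell cycle genes lay at −5.28 in Arl13b-null 2 and at −2.02 in wild-type 1 on the log2 scale, and that of 18 neuronal genes at 2.37 and 1.32. Emx1, a transcription factor of the dorsal telencephalon, had 145, 2641 and 25.0 normalized counts in Arl13b-null 1 to 3, against 633, 875 and 1161 in wild-type 1 to 3, so Arl13b-null 3 had the least. The list of 12 telencephalon genes summed to 26893, 38877 and 14271 normalized counts in Arl13b-null 1 to 3, against 37854, 34459 and 44889 in wild-type 1 to 3, with no gene at 0. Its median from the wild-type 2 and 3 average was −0.54, −3.25 and −1.20 in Arl13b-null 1 to 3, and −0.39 in wild-type 1. Between Arl13b-null 1 and 3 and wild-type 2 and 3 the median difference was −0.98. There 10 of the 12 were lower in Arl13b-null and 2 higher (16.7%, beside 58.8% of all genes tested). The 2 pairs lay apart with Arl13b-null lower in 7 (58.3%, beside 18.1%). Xist, expressed from the inactive X chromosome of females, was counted 16292 and 19017 times in Arl13b-null 1 and 3, against 26.5 and 213 times in wild-type 2 and 3. The Y-linked Ddx3y was counted 0 and 1.24 times in that mutant pair, against 1093 and 1258 times in the wild-type pair. Sex and genotype therefore cannot be told apart among those 4 libraries. Xist was counted 244 times in Arl13b-null 2 and 15101 times in wild-type 1, and Ddx3y 0 and 0.537 times. Every comparison is given over all 6 libraries and over the 4 libraries Arl13b-null 1 and 3 and wild-type 2 and 3.

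The subunit genes varied little among the 4 similar libraries. The median within-group SD over the 79 members was 0.048 on the log2 scale, beside 0.069 over all 14249 genes tested. Between any pair of these 4 libraries, the median absolute difference of the members was 0.042 to 0.11. It was 0.14 to 0.22 between wild-type 1 and the 4, and 0.86 to 0.95 between Arl13b-null 2 and the 4. Summed over all 84 members, normalized counts came to 246417, 392002 and 237367 in Arl13b-null 1 to 3, against 215793, 232387 and 230074 in wild-type 1 to 3. As a share of each library, that was 0.871%, 1.08% and 0.814% in the Arl13b-null libraries, against 0.779%, 0.846% and 0.825% in the wild-type libraries. By either measure Arl13b-null 2 stood above all others and Arl13b-null 1 lay above the wild-type range. Arl13b-null 3 lay above that range by summed counts and within it by share.

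**Figure D1:**
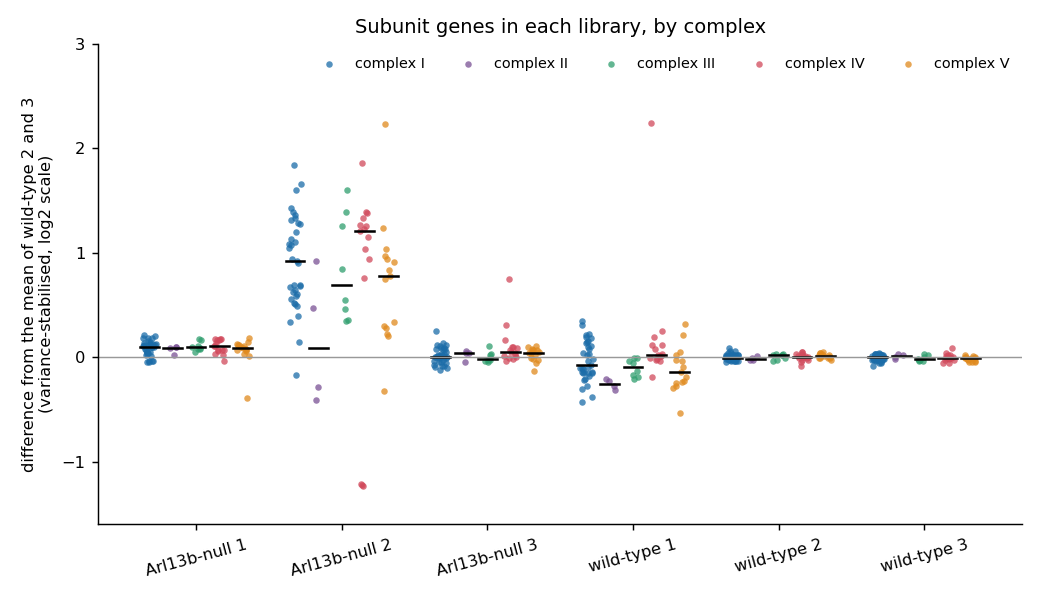
Each point is 1 tested subunit gene, coloured by complex, and the vertical axis is its variance-stabilised value minus the wild-type 2 and 3 average (log2 scale), with black bars for the median of each complex. Arl13b-null 2 has complex medians between 0.092 (complex II) and 1.21 (complex IV), while Arl13b-null 1 and 3 have every complex median between −0.013 and 0.11.

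Over all 6 libraries, subunit genes were higher in Arl13b-null than in wild-type libraries by a median of 0.33 on the log2 scale, beside 0.0026 over all genes tested, and none passed the test. The differences were above 0 for 73 of the 79 members (92.4%), beside 50.2% of all genes tested. By complex the median difference was 0.33 for complex I, 0.17 for complex II, 0.31 for complex III, 0.41 for complex IV and 0.33 for complex V. No member passed an adjusted p of 0.05 (limma with Benjamini-Hochberg adjustment, 0.0% of all genes called, smallest member value 0.990) or an unadjusted p of 0.05, in either direction, beside 1.14% of all genes at the unadjusted level (0.112% higher and 1.03% lower). Without Arl13b-null 2 the median over members was 0.090, and the complex medians lay between 0.075 for complex IV and 0.14 for complex II. The size of the 6-library median therefore rests on that library. Without Arl13b-null 3 it was 0.50 over members and 0.63 for complex IV, and without wild-type 1 the complex II median was 0.078. With library weights, which give libraries that stand apart less influence, the median over members was 0.032 and that of complex III was −0.0048. Estimation of these weights stopped with a convergence warning, so their results are given only as computed. The median SD of the members was 0.51 among the 3 Arl13b-null libraries and 0.089 among the 3 wild-type libraries.

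The Arl13b-null values lay above all wild-type values in 24 of the 79 members (30.4%, beside 4.67% of all genes tested), and below all of them in 0 (beside 3.59%). The 24 comprised 9 genes of complex I, 1 of complex II, 2 of complex III, 5 of complex IV and 7 of complex V. With 3 libraries in each group, an exact two-sided permutation test cannot go below 0.1, which is its value for each of these genes. Ndufa2, an accessory subunit of the NADH-binding arm of complex I, had 1687, 2129 and 1532 normalized counts in Arl13b-null 1 to 3, against 1115, 1502 and 1446 in wild-type 1 to 3. Atp5h, subunit d of the peripheral stalk that holds the ATP synthase still, had 2383, 2561 and 2240 normalized counts in Arl13b-null 1 to 3, against 1715, 2101 and 2085 in wild-type 1 to 3. In both genes the groups do not overlap, and wild-type 1 is the lowest of the 6. Their log2 differences were 0.38 ± 0.22 SE for Ndufa2 (Arl13b-null 10.84 ± 0.24, wild-type 10.46 ± 0.22, SD, n = 3 each, exact permutation p = 0.1) and 0.28 ± 0.17 SE for Atp5h. Both genes had a limma adjusted p of 0.990. Ndufa12 and Atp5k, an accessory subunit of the matrix arm of complex I and a small subunit of the synthase membrane part, were apart in the same way, with differences of 0.33 ± 0.20 SE and 0.45 ± 0.28 SE.

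Among the 4 similar libraries, the subunit genes of Arl13b-null 1 and 3 were slightly above those of wild-type 2 and 3, by a median of 0.062 on the log2 scale, beside 0.023 over all genes tested. The differences were above 0 for 66 and below 0 for 13 of the 79 members (83.5% above, beside 58.8% of all genes tested). No member passed an adjusted p of 0.05 (limma with Benjamini-Hochberg adjustment, smallest value 0.200 for Ndufa6), while 0.253% of all genes tested were called (0.0702% higher and 0.182% lower). At an unadjusted p of 0.05 there were 6 members, all higher in Arl13b-null (7.59%, beside 8.08% of all genes in that direction), which is close to the background, and 0 were lower (beside 6.33%). The 95% intervals held the differences of 77 of the 79 members within 0.5 of 0 and of all 79 within 1, and the median distance from a difference to the end of its interval was 0.14. The median over members was 0.099 in Arl13b-null 1 and 0.025 in Arl13b-null 3, each against the wild-type 2 and 3 average. The members that lay above that average numbered 71 in Arl13b-null 1 and 49 in Arl13b-null 3, so the small shift was mostly that of 1 library. Without Arl13b-null 1 the medians of complexes I to V were 0.0048, 0.045, −0.013, 0.048 and 0.038, and without Arl13b-null 3 they were 0.10, 0.091, 0.096, 0.11 and 0.090. Groups lay apart with Arl13b-null higher in 38 members (48.1%, beside 29.3% of all genes) and lower in 6 (7.59%, beside 18.1%). With quantile normalization the median over members was 0.028. The 13 genes of surface ectoderm and epithelium separated the same libraries, with sums of 981, 238 and 326 normalized counts in Arl13b-null 1 to 3, against 25310, 5548 and 2538 in wild-type 1 to 3. All 13 were lower in every Arl13b-null library than in any wild-type one (beside 3.59% of all genes), with a 4-library median of −1.91. In the 4 libraries 0 passed the adjusted test (limma, smallest value 0.101) and 12 had an unadjusted p below 0.05. Of the list, Krt5, Krt8, Krt15 and Cdh1 were at 0 in Arl13b-null 2 and Krt14 in Arl13b-null 3. Their part in the values of the subunit genes was not tested.

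**Figure D2:**
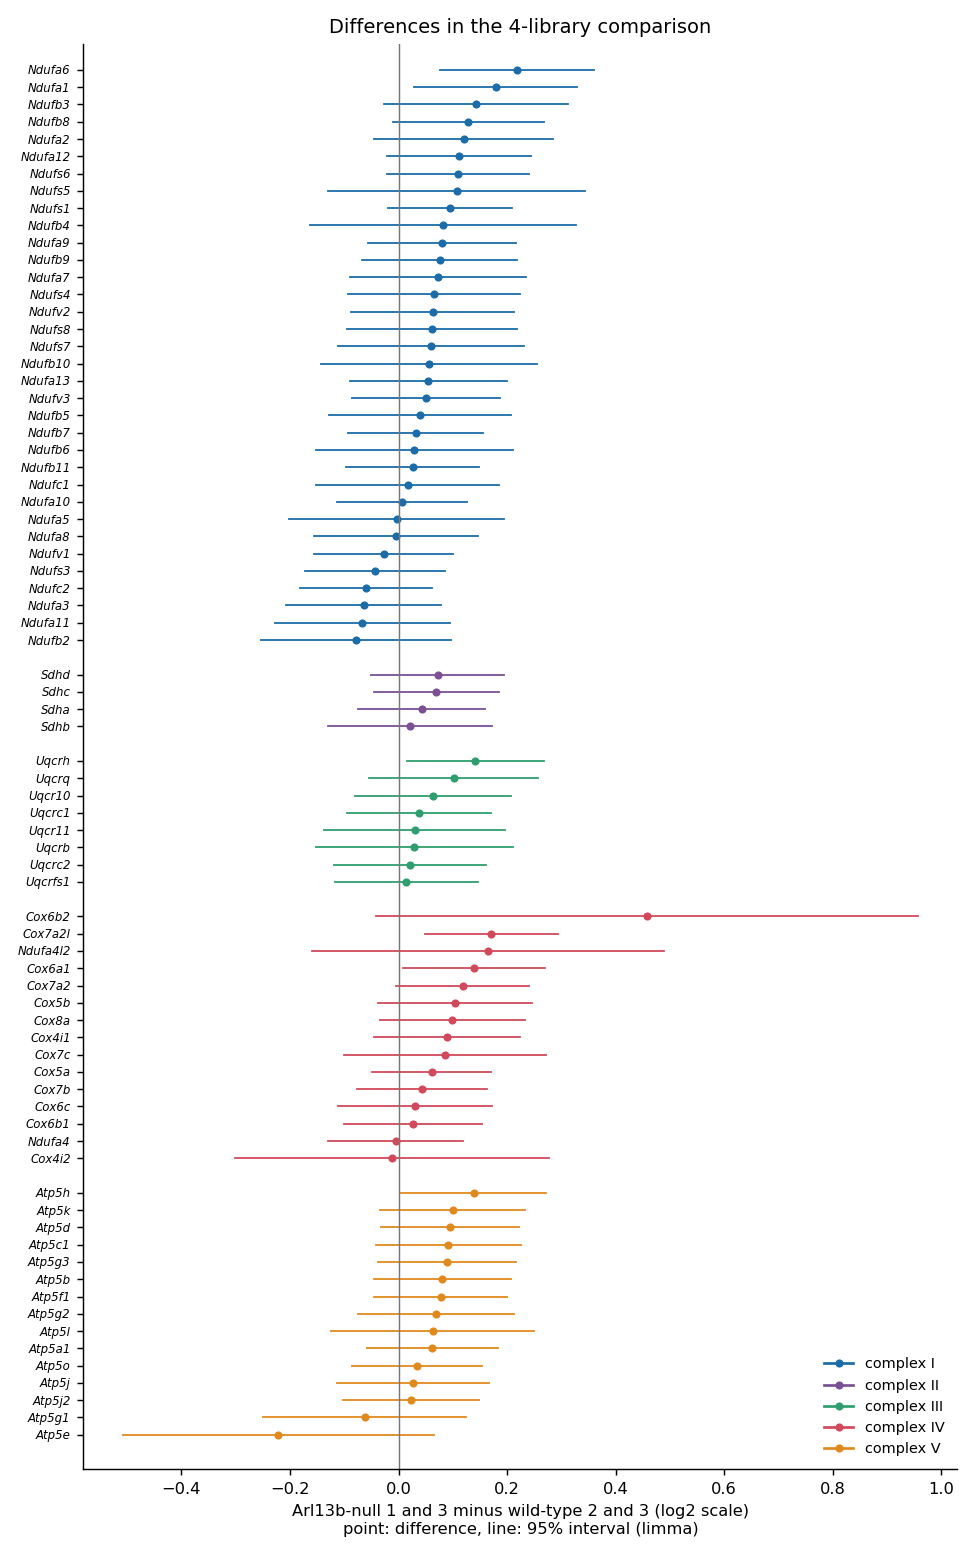
Points are log2 differences of Arl13b-null 1 and 3 minus wild-type 2 and 3 for the tested subunits shown, ordered by size within each complex, and lines are 95% intervals from limma. The lines that do not cross 0 belong to Ndufa6, Ndufa1, Uqcrh, Cox7a2l, Cox6a1 and Atp5h, and the widest line is that of Cox6b2, from −0.042 to 0.96.

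Complex I has a catalytic core, of which 7 members are nuclear-encoded, and a shell of accessory subunits, of which 28 were measured. In the 4-library comparison the median difference was 0.061 for the core and 0.056 for the accessory subunits, and none of the 35 passed the test. Ndufa6, an accessory subunit of the LYR family, had 1429 and 1508 normalized counts in Arl13b-null 1 and 3, against 1238 and 1265 in wild-type 2 and 3. Ndufa1, a small membrane-arm subunit encoded on the X chromosome, had 1133 and 1069 normalized counts in Arl13b-null 1 and 3, against 966 and 963 in wild-type 2 and 3. In both, the Arl13b-null libraries lay above the wild-type pair. The log2 difference was 0.22 ± 0.057 SE for Ndufa6 (limma adjusted p = 0.200) and 0.18 ± 0.060 SE for Ndufa1 (limma adjusted p = 0.281). In the libraries left out, Arl13b-null 2 reached 3159 counts of Ndufa6 and 2718 of Ndufa1, while wild-type 1 had 1405 of Ndufa6 and 1048 of Ndufa1. The membrane-arm subunits Ndufb3 and Ndufb8 differed by 0.14 and 0.13 in the 4 libraries (limma adjusted p of 0.416 and 0.377).

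Of the core subunits, Ndufs1, the largest and a carrier of iron-sulphur clusters, had 2905, 2389 and 2874 normalized counts in Arl13b-null 1 to 3, against 2422, 2679 and 2724 in wild-type 1 to 3. The groups overlapped because Arl13b-null 2 was the lowest of the 6. In the 4 libraries the log2 difference was 0.095 (95% interval −0.019 to 0.21, limma adjusted p = 0.423). The flavoprotein subunits Ndufv1 and Ndufv2, which take electrons from NADH, differed by −0.028 and 0.063 in the same comparison, with intervals that span 0. The other X-linked members, Ndufb11 of complex I and Cox7b of complex IV, differed by 0.026 and 0.043. Differences of these X-linked genes cannot be told apart from those between the sexes of the 4 libraries.

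Complex II, succinate dehydrogenase, also works in the tricarboxylic acid cycle and has 4 subunits, all nuclear. None passed the test, with limma adjusted p-values of 0.552 to 0.907 and log2 differences of 0.021 to 0.072 in the 4 libraries. Sdha, the flavoprotein that oxidises succinate, had 6601, 4876 and 6758 normalized counts in Arl13b-null 1 to 3, against 5353, 6352 and 6611 in wild-type 1 to 3. Sdhb, the iron-sulphur subunit, had 3239, 5834 and 2954 normalized counts in Arl13b-null 1 to 3, against 2633, 2999 and 3095 in wild-type 1 to 3. The groups overlapped for both, and Arl13b-null 2 was the lowest library for Sdha and the highest for Sdhb. The membrane anchors Sdhc and Sdhd, which bind ubiquinone, differed by 0.069 and 0.072. Sdhc had 4007, 3064 and 3865 normalized counts in Arl13b-null 1 to 3, against 3005, 3734 and 3760 in wild-type 1 to 3, so Arl13b-null 2 was again low. The share of all normalized counts held by complex II was 0.0578%, 0.0470% and 0.0548% in Arl13b-null 1 to 3, against 0.0468%, 0.0562% and 0.0565% in wild-type 1 to 3.

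All 8 members of complex III had differences above 0 in the 4 libraries, beside 58.8% of all genes tested. Their median was 0.033 with a range of 0.014 to 0.14, and none passed the test. Against the wild-type 2 and 3 average, 8 of the 8 lay above in Arl13b-null 1 and 3 of the 8 in Arl13b-null 3. Of all 14249 genes tested, 8267 and 8076 lay above in these libraries. The complex III median without Arl13b-null 1 was −0.013. Uqcrh, the hinge protein between cytochrome c1 and cytochrome c, had 3619, 4426 and 3441 normalized counts in Arl13b-null 1 to 3, against 3114, 3240 and 3145 in wild-type 1 to 3. Every Arl13b-null library was above every wild-type one. The log2 difference was 0.14 ± 0.050 SE over the 4 libraries (limma adjusted p = 0.301) and 0.26 ± 0.17 SE over all 6 (limma adjusted p = 0.990). Uqcrfs1, the Rieske iron-sulphur protein that moves electrons within the complex, differed by 0.014 (95% interval −0.12 to 0.15) in the 4 libraries. The small subunits Uqcrq, Uqcr10, Uqcr11 and Uqcrb differed by 0.10, 0.064, 0.030 and 0.029, and the core protein Uqcrc1 by 0.037. With quantile normalization Uqcrc1 and Uqcrfs1 turned to −0.011 and −0.026.

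In complex IV, the common forms of the subunits had a median difference of 0.086 in the 4 libraries and none passed the test. Cox6a1, a regulatory subunit next to the catalytic core, had 4337, 14049 and 4104 normalized counts in Arl13b-null 1 to 3, against 4385, 3904 and 3742 in wild-type 1 to 3. Cox7a2l, whose product is linked to supercomplexes of complexes III and IV, had 1882, 3918 and 1861 normalized counts in Arl13b-null 1 to 3, against 1638, 1642 and 1667 in wild-type 1 to 3. The groups did not overlap for Cox7a2l, and they did for Cox6a1 because wild-type 1 lay above Arl13b-null 1 and 3. Over the 4 libraries the log2 difference was 0.17 ± 0.049 SE for Cox7a2l (limma adjusted p = 0.230) and 0.14 ± 0.052 SE for Cox6a1 (limma adjusted p = 0.323). Cox4i1, the common form of the subunit through which ATP regulates the enzyme, differed by 0.090 (95% interval −0.045 to 0.22). Ndufa4 differed by −0.0055 (95% interval −0.13 to 0.12), the smallest difference of the common forms in size. Cox5b, which binds zinc, Cox7a2 and Cox8a differed by 0.10, 0.12 and 0.099, and Cox6b1, the common form on the intermembrane side, by 0.027 (−0.026 with quantile normalization).

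In complex V, 13 of 15 members had differences above 0 in the 4 libraries, beside 58.8% of all genes tested. The median over the 15 was 0.069, and none passed the test. Atp5a1 and Atp5b, the alpha and beta subunits of the catalytic F1 head, were the most abundant members by count. Atp5b had 33847, 37178 and 33396 normalized counts in Arl13b-null 1 to 3, against 27199, 32164 and 31423 in wild-type 1 to 3. Atp5a1 had 27386, 29990 and 26943 normalized counts in Arl13b-null 1 to 3, against 21980, 25884 and 26140 in wild-type 1 to 3. Neither gene overlapped between groups, although the 4-library differences were only 0.081 for Atp5b and 0.062 for Atp5a1, and with quantile normalization they were −0.026 and −0.0060. Atp5d, the delta subunit of the rotor, and Atp5k differed by 0.095 and 0.10, and Atp5j2, subunit f of the membrane part, by 0.022 (−0.024 with quantile normalization). Atp5h had the smallest unadjusted p of the complex, with a difference of 0.14 ± 0.053 SE (limma adjusted p = 0.333). Atp5e, the epsilon subunit of the rotor stalk, had the lowest difference of all members, −0.22 (95% interval −0.51 to 0.065, limma adjusted p = 0.453). Its normalized counts were 1660, 2723 and 2119 in Arl13b-null 1 to 3, against 2058, 2250 and 2147 in wild-type 1 to 3, so the value of Arl13b-null 1 was the low one. Atp5sl, the member that is no subunit of the synthase, had 470 and 408 normalized counts in Arl13b-null 1 and 3, against 516 and 519 in wild-type 2 and 3 (difference −0.21, limma adjusted p = 0.357). Short genes with processed copies in the genome, such as Atp5e, can share reads with those copies, and their counts are uncertain to that extent.

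Arl13b-null 2 differed from the other libraries in most subunit genes, and not by the same amount in each complex. Against the wild-type 2 and 3 average, with 1 library and hence no test, its median over members was 0.92 on the log2 scale (1.89-fold), beside −0.093 over all genes tested. It lay above in 72 members and below in 7, while it lay above in 6698 of all 14249 genes tested. There were 32 members (40.5%) at least 1 above, beside 21.0% of all genes tested. The median was 0.63 for the complex I core and 1.08 for its accessory subunits, 0.69 for complex III, 1.26 for the common forms of complex IV, and 0.092 for complex II. Within complex V it was 0.30 for the F1 head, 0.55 for the peripheral stalk, 0.97 for the c ring and 0.92 for the accessory membrane subunits. The 18 neuronal markers summed to 223506, 1041198 and 219566 normalized counts in Arl13b-null 1 to 3, against 443152, 210732 and 210858 in wild-type 1 to 3. The 24 cell cycle genes summed to 137793, 3784 and 151232 in Arl13b-null 1 to 3, against 31966, 130064 and 139897 in wild-type 1 to 3. None of the genes on either list was at 0. Their part in the values of the subunit genes was not tested. In wild-type 1, the other library with more neuronal and less cell cycle RNA, the median over members was −0.035.

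The highest deviation of Arl13b-null 2 was that of Atp5g1, 1 of 3 genes that encode the same mature c subunit of the proton-driven ring. Its normalized counts were 1213, 5923 and 1090 in Arl13b-null 1 to 3, against 1409, 1246 and 1162 in wild-type 1 to 3. Those of Atp5g2 were 1177, 907 and 1242 in Arl13b-null 1 to 3, against 775, 1144 and 1155 in wild-type 1 to 3. Atp5g1 was thus 4.92-fold, and Atp5g2 0.789-fold, the mean of wild-type 2 and 3 in Arl13b-null 2. Atp5g3, the most abundant, had 6368, 11629 and 6211 normalized counts in Arl13b-null 1 to 3, against 5810, 6085 and 5732 in wild-type 1 to 3. Of the counts of the 3 genes, Atp5g1 held 13.9%, 32.1% and 12.8% in Arl13b-null 1 to 3, against 17.6%, 14.7% and 14.4% in wild-type 1 to 3. Atp5g2 held 13.4%, 4.92% and 14.5% in Arl13b-null 1 to 3, against 9.69%, 13.5% and 14.4% in wild-type 1 to 3. Both libraries that stood apart thus had a larger share of Atp5g1 and a smaller share of Atp5g2 than each of the other 4, whichever group they were in. In the 4-library comparison the differences were −0.062, 0.069 and 0.090 for Atp5g1, Atp5g2 and Atp5g3, and none passed the test (limma adjusted p of 0.752, 0.641 and 0.490). Among the tested members, next after Atp5g1 in Arl13b-null 2 came Ndufv3, an accessory subunit of the NADH-binding arm of complex I. It was at 3.73-fold the mean count of wild-type 2 and 3, and Cox6a1 was at 3.67-fold. On the variance-stabilised scale their deviations were 1.84 for Ndufv3 and 1.86 for Cox6a1. Ndufv3 had 1349, 4783 and 1314 normalized counts in Arl13b-null 1 to 3, against 1504, 1264 and 1304 in wild-type 1 to 3.

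**Figure D3:**
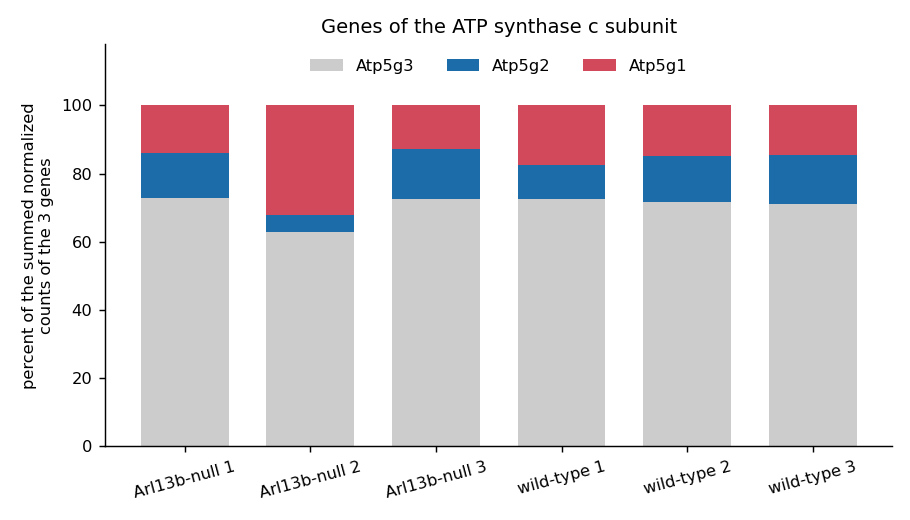
Stacked bars give the percent of the summed normalized counts of Atp5g1, Atp5g2 and Atp5g3 held by each gene in each library. Atp5g1 takes 32.1% and Atp5g2 4.92% in Arl13b-null 2, and 17.6% and 9.69% in wild-type 1, while Atp5g3 holds 63.0% to 72.7% throughout.

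The promoters of Atp5g1 and Cox6a1, the highest deviations of Arl13b-null 2 on the variance-stabilised scale, and of Atp5g2, which deviated downward, are shown to place their sequence beside these values. Each runs from 250 bases before to 50 after the annotated start in the RefSeq table of GRCm38.p6 (Atp5g1 at chr11:96075582-96075881, Atp5g2 at chr15:102670998-102671297, Cox6a1 at chr5:115348909-115349208, all on the minus strand). Capitals mark matches on either strand to 5 motifs, namely the core letters CATGCGC of NRF1, a regulator of respiratory genes, CCGGAAG of ETS factors, AAGATGG of YY1, GGGCGG of SP1 and ACGTG of hypoxia-inducible factors.
Atp5g1: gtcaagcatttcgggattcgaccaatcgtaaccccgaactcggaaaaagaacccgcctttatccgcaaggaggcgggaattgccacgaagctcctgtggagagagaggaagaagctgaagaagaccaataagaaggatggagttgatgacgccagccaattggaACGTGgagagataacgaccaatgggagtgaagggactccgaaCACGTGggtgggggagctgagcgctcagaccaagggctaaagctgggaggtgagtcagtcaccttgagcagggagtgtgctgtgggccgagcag
Atp5g2: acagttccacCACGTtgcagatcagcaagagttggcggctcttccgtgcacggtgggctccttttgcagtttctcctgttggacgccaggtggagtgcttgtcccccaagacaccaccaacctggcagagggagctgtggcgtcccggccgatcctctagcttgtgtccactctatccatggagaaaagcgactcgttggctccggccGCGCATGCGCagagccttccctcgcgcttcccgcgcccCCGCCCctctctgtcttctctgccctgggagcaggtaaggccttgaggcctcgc
Cox6a1: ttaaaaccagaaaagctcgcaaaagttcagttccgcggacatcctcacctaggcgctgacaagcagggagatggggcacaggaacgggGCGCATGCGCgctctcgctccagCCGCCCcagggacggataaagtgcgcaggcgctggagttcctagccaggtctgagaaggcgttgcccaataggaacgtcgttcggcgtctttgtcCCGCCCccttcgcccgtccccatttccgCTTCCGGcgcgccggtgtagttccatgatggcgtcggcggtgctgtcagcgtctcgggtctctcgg
The Atp5g2 and Cox6a1 windows each hold 1 palindromic stretch that matches the NRF1 letters on both strands, and the Atp5g1 window holds matches to ACGTG alone. Atp5g2 also has a match to ACGTG and a match to GGGCGG. Cox6a1 also has 1 match to CCGGAAG and 2 to GGGCGG. A promoter was found for 69 of the 84 members. The NRF1 letters were in 13 of these 69 (18.8%), beside 6.82% of the promoters of all genes tested, and the YY1 letters were in 11 (15.9%), beside 6.84%. The ETS letters were in 15 (21.7%, beside 17.0%), the ACGTG core in 19 (27.5%, beside 25.5%) and the SP1 letters in 28 (40.6%, beside 65.3%). The median GC content was 57.3% for the members and 61.3% for all genes tested. These matches are descriptions of the letters and do not show binding.

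Complex IV has forms that belong to particular tissues or conditions, and 5 of these 8 genes, Cox6a2, Cox7a1, Cox7b2, Cox8b and Cox8c, were too low to test. The muscle form Cox6a2 had 0, 57.7 and 0 normalized counts in Arl13b-null 1 to 3, against 3.11, 0.643 and 0 in wild-type 1 to 3. The muscle form Cox7a1 had 5.57, 9.38 and 2.34 normalized counts in Arl13b-null 1 to 3, against 9.74, 5.75 and 2.24 in wild-type 1 to 3. The testis forms Cox7b2 and Cox8c reached at most 6.63 and 0 normalized counts, and Cox8b, another muscle form, at most 1.61. Only Cox6a2 had more than 10 counts in any library, and that library was Arl13b-null 2. The 23 genes of the skeletal and heart muscle list summed to 385, 722 and 297 normalized counts in Arl13b-null 1 to 3, against 1783, 327 and 270 in wild-type 1 to 3. In Arl13b-null 2, 6 of the 23 were at 0, and the muscle actin Acta1 had 272 counts there. Their part in the Cox6a2 value was not tested.

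Ndufa4l2, a hypoxia-induced relative of Ndufa4 that is also known from pericytes, had 66.2, 6.59 and 92.3 normalized counts in Arl13b-null 1 to 3, against 522, 66.8 and 62.1 in wild-type 1 to 3. The high library was wild-type 1, where it was 8.10-fold the mean of wild-type 2 and 3 and made up 17.4% of the summed counts of Ndufa4 and Ndufa4l2. Over all 6 libraries the log2 difference was −1.04 ± 0.76 SE, and over the 4 it was 0.17 (95% interval −0.16 to 0.49, limma adjusted p = 0.618). The 9 pericyte genes, a list added after values had been seen, summed to 10806, 658 and 13094 normalized counts in Arl13b-null 1 to 3, against 11136, 10516 and 10086 in wild-type 1 to 3. The 8 tested genes of the list did not move alike in wild-type 1. Their deviations from the wild-type 2 and 3 average ran from −1.59 to 2.27 there, with a median of 0.99 and 7 above 0. Of all 14249 genes tested, 6663 lay above 0 there. The pericyte marker Rgs5, named after its values were seen, was highest in wild-type 1 as well. It had 898, 189 and 857 normalized counts in Arl13b-null 1 to 3, against 3697, 701 and 726 in wild-type 1 to 3. At most 1 gene of the list was at 0 in any library. Its part in the Ndufa4l2 values was not tested.

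Cox4i2, the lung form of subunit 4, had 25.1, 0 and 27.2 normalized counts in Arl13b-null 1 to 3, against 40.1, 22.9 and 30.9 in wild-type 1 to 3. Cox6b2, the testis form of subunit 6b, had 139, 22.9 and 239 normalized counts in Arl13b-null 1 to 3, against 97.0, 115 and 121 in wild-type 1 to 3. For Cox4i2 the groups overlapped, and for Cox6b2 Arl13b-null 1 and 3 lay above, and Arl13b-null 2 below, all wild-type libraries. The Cox6b2 difference of 0.46 ± 0.20 SE was the largest of all members in the 4 libraries and did not pass the test (limma adjusted p = 0.379). Without Arl13b-null 1, which leaves a single mutant library assumed to vary like the wild-type pair, it was 0.75 with a limma adjusted p of 0.0274, and it was the 1 member of 79 (1.27%) that passed there, beside 5.09% of all genes tested.

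**Figure D4:**
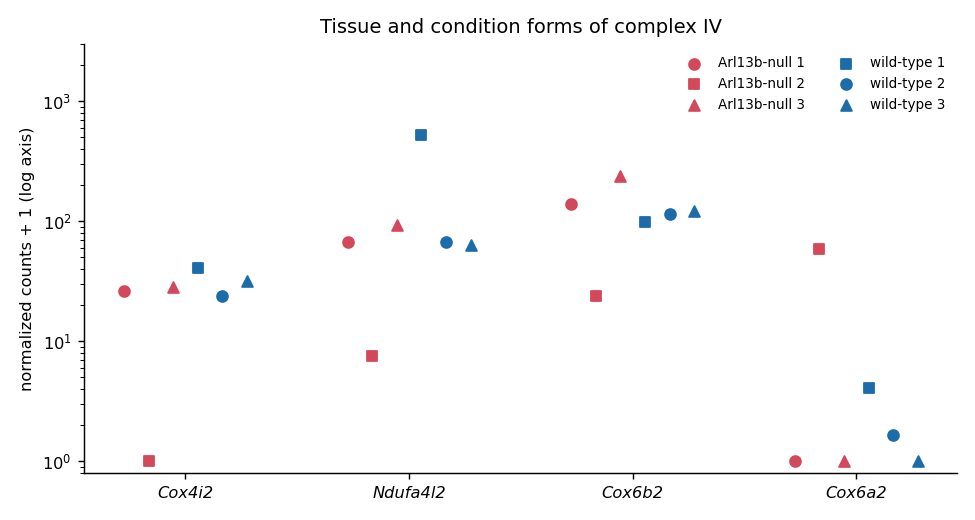
Normalized counts plus 1 of 4 tissue or condition forms of complex IV subunits are plotted on a log axis, 1 marker per library (red Arl13b-null, blue wild-type). Ndufa4l2 stands out in wild-type 1 at 522 counts, Cox6a2 in Arl13b-null 2 at 57.7 counts, and Cox4i2 is at 0 in Arl13b-null 2.

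Genes that work with the subunits showed few calls. Of 47 assembly factors, which build the complexes, 0 passed the test in either direction in the 4 libraries (limma, beside 0.253% of all genes). At an unadjusted limma p of 0.05 there were 0 (beside 14.4% of all genes), and the median difference was 0.020. Of 17 subunits and carriers outside the name rule, 0 passed, with a median of 0.040. At the unadjusted level 2 of them were higher (11.8%, beside 8.08% of all genes) and 0 were lower (beside 6.33%). The lowest p among the 17 was that of Slc25a5, a carrier that exchanges ADP for ATP (limma adjusted p = 0.137). It had 11921 and 11493 normalized counts in Arl13b-null 1 and 3, against 9975 and 9994 in wild-type 2 and 3. Of 19 genes of the tricarboxylic acid cycle, 0 passed, with a median of 0.027. At the unadjusted level 1 of the 19 was higher (5.26%) and 0 were lower. The lowest p was that of Pdha1, an X-linked subunit of pyruvate dehydrogenase, at a difference of 0.35 ± 0.066 SE (limma adjusted p = 0.123). Among the 4 libraries, the differences of Slc25a5 and Pdha1 cannot be told apart from those between the sexes. At the unadjusted level 1 of 40 genes of the mitochondrial ribosome was higher (2.5%) and 0 were lower, and 0 of 16 regulators of mitochondrial biogenesis were higher or lower. The 40 genes had a median of 0.035 and the 16 regulators one of 0.017, with 0 calls in the adjusted test in each. In the 4 libraries these medians were close to the 0.023 of all genes. Over all 6 libraries the median was 0.28 for the subunits and carriers outside the name rule, 0.26 for the mitochondrial ribosome, 0.20 for assembly factors and 0.17 for the tricarboxylic acid cycle, beside 0.0026 over all genes, and −0.029 for the biogenesis regulators. Differences above 0 made up 92.5% of the mitochondrial ribosome and 88.2% of the subunits and carriers outside the rule, beside 50.2% of all genes. Medians above 0 were thus also found outside the subunit genes.

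The glycolysis and hypoxia-induced lists, which share no gene, had higher medians. The median difference in the 4 libraries was 0.41 over 21 glycolytic genes. At an unadjusted limma p of 0.05, 14 were higher (66.7%, beside 8.08% of all genes) and 1 was lower (beside 6.33%). In the adjusted test 1 passed as lower (beside 0.182%) and 0 as higher (beside 0.0702%). That gene was Aldoc, the brain aldolase, with 49.6 and 29.5 normalized counts in Arl13b-null 1 and 3, against 585 and 814 in wild-type 2 and 3 (log2 difference −2.98 ± 0.19 SE, limma adjusted p = 0.0132). Ldha, which turns pyruvate into lactate, had 21366 and 30937 normalized counts in Arl13b-null 1 and 3, against 11096 and 12351 in wild-type 2 and 3, and did not pass (limma adjusted p = 0.0887). The median was 0.35 over 19 hypoxia-induced genes. At an unadjusted limma p of 0.05, 16 were higher (84.2%, beside 8.08% of all genes) and 0 were lower (beside 6.33%). In the adjusted test 1 passed as higher (beside 0.0702%) and 0 as lower (beside 0.182%). That gene was Adm, the peptide adrenomedullin, with 176 and 268 normalized counts in Arl13b-null 1 and 3, against 31.6 and 35.9 in wild-type 2 and 3 (1.66 ± 0.17 SE, limma adjusted p = 0.0483). The 10 red blood cell genes summed to 111589, 212 and 306383 normalized counts in Arl13b-null 1 to 3, against 33084, 61287 and 79189 in wild-type 1 to 3. In Arl13b-null 2, 4 of the 10 were at 0, among them the embryonic globins Hba-x, Hbb-y and Hbb-bh1. Their part in the glycolytic and hypoxia values was not tested. Over all 6 libraries no gene of these 7 lists passed the test.

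**Figure D5:**
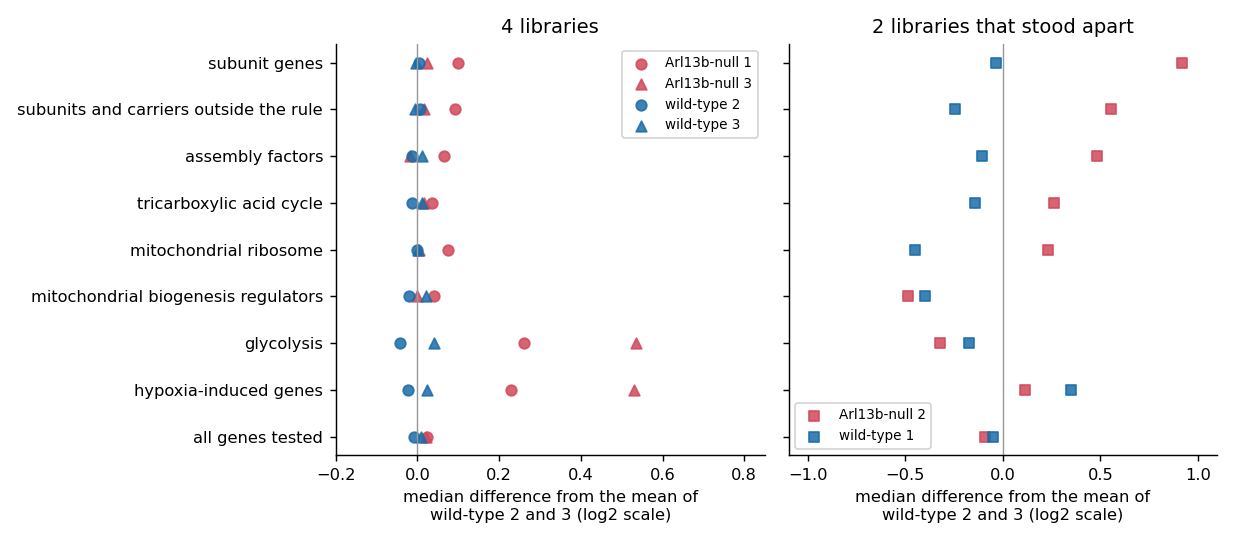
Symbols are median log2 differences from the mean of wild-type 2 and 3 for each gene list, with the 4 similar libraries on the left and the 2 that stood apart on the right, on different horizontal scales. Subunit genes stay between −0.0041 and 0.099 on the left, whereas glycolysis and hypoxia-induced genes reach 0.54 and 0.53 in Arl13b-null 3, and subunit genes reach 0.92 in Arl13b-null 2 on the right.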

How the data were processed

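The libraries were 3 Arl13b-null and 3 wild-type samples of poly(A) RNA, and their labelled genotype set the groups. For 24444 symbols, values that the authors had variance-stabilised (log2 scale) before they were deposited ran from 5.13 to 18.39. DESeq2, DESeq 1.16.1, Salmon 0.9.1, STAR 2.6.0, CASAVA and build mm9 are named in the submitters' processing notes, and their roles and the annotation were not given in the sources used here. From this table, undoing the transformation gave normalized counts, and the value of 1 read put depth at 38800000, 27600000 and 47400000 reads in Arl13b-null 1 to 3 and 51700000, 41500000 and 35500000 in wild-type 1 to 3. Of the values below 30 reads, 69.7% to 80.0% came within 0.05 of a whole read in each library, too few for a count test.

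Genes with a mean at least 1 above the lowest value were kept (14249), and limma 3.58.1 (R 4.3.3) compared the groups with a mean-variance trend and two-sided Benjamini-Hochberg adjustment at 0.05. Differences on this scale understate changes of low genes. With 2 libraries per group no exact test can reach 0.05, so only limma is given for 4 libraries. The code was tested on simulated data. Members and lists were chosen with earlier results of these data known. Named members are up to 5 of each complex with the smallest p in either comparison, the forms of complexes IV and V encoded by separate genes, and members too low to test, with up to 4 genes of each other list. The members Ndufb11, Ndufs1, Ndufv1, Ndufv2, Ndufv3, Uqcrfs1, Atp5a1 and Atp5b and the markers Emx1, Rgs5, Acta1, Xist and Ddx3y were named after their values were seen. Some items are not reported here. No 2 libraries agreed within sampling noise. Alternatives were other filters, centring, quantile normalization, log2(count + 1), leaving out each library, a replicate block, library weights, robust moderation and no trend. Figures were drawn with matplotlib 3.10.9.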

Additional observations from a re-analysis of the deposited data

How the results depend on the processing

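No member passed the adjusted threshold under any setting tried, except 1 (Cox6b2) among the 4 libraries without Arl13b-null 1, so leaving out a library gave 0 to 1. That setting called 5.09% of all genes. Of the values of named members in other settings, 382 kept and 20 turned their sign over 6 libraries, and 301 kept and 11 turned it over 4 libraries, all under centring, quantile normalization or library weights. The cause was not tested. Centring on library medians turned Sdha, Atp5e and Atp5sl to 0.0092, 0.0082 and 0.0013 over 6 libraries, and over 4 it turned Uqcrfs1 to −0.00080 and put the complex II median at 0.041. Quantile normalization turned Cox6b2 to 0.26, Sdhc to −0.057, Atp5a1 to −0.080, Atp5b to −0.0725 and Ndufs1 to −0.029 over 6 libraries. Over 4 libraries it turned Sdha to −0.0027, Sdhb to −0.022, Cox4i2 to 0.074, Atp5a1 to −0.0060, Atp5b to −0.026, Ndufb11 to −0.015, Uqcrc1 to −0.011, Uqcrfs1 to −0.026, Cox6b1 to −0.026 and Atp5j2 to −0.024, with medians of 0.028 for all members, 0.010 for complex II and 0.062 for complex IV. Library weights over 6 libraries gave Sdha 0.071, Cox6b2 0.74, Cox4i2 0.036, Ndufa4 −0.019, Ndufa4l2 0.25, Atp5g1 −0.13, Sdhb −0.016, Uqcr11 −0.026, Uqcrb −0.021, Uqcrc1 −0.012, Cox6b1 −0.0013 and Ndufv1 −0.055. The medians with these weights, a choice made after seeing the data, were 0.046 for complex II and −0.0048 for complex III. Library weights, whose estimation stopped with a convergence warning, put the smallest limma adjusted p of a member at 0.0593.

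Leaving out 1 library at a time gave these ranges over 6 libraries: Atp5e −0.19 to 0.16, Atp5g1 −0.13 to 1.05, Atp5g2 −0.061 to 0.25, Atp5sl −0.36 to 0.19, Cox6b1 −0.012 to 0.69, Cox6b2 −0.48 to 0.52, Ndufa4 −0.011 to 0.64, Ndufv3 −0.023 to 0.88, Sdha −0.11 to 0.13 and Sdhc −0.049 to 0.17. Over 4 libraries the ranges were Atp5g1 −0.14 to 0.011, Atp5j2 −0.013 to 0.058, Cox4i2 −0.10 to 0.074, Cox6b1 −0.017 to 0.070, Cox6b2 0.16 to 0.75, Ndufa4 −0.039 to 0.028, Ndufv1 −0.069 to 0.013, Sdhb −0.044 to 0.086, Uqcr11 −0.030 to 0.089, Uqcrb −0.047 to 0.10, Uqcrc1 −0.0044 to 0.079 and Uqcrfs1 −0.021 to 0.050. The medians ranged from 0.025 (without Arl13b-null 1) to 0.099 (without Arl13b-null 3) for all members, 0.0048 to 0.10 for complex I, 0.040 to 0.091 for complex II, −0.013 to 0.096 for complex III, 0.048 to 0.11 for complex IV and 0.038 to 0.090 for complex V. Over 6 libraries they ranged from 0.090 to 0.50 for all members, 0.087 to 0.49 for complex I, 0.078 to 0.22 for complex II, 0.093 to 0.45 for complex III, 0.075 to 0.63 for complex IV and 0.11 to 0.48 for complex V. A lone library left in a group was assumed to vary like the others.

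Calls over all genes in the 4 libraries numbered 36, and 7 without the trend, 59 with quantile normalization, 98 with robust moderation, 24 with the stricter filter, and 725, 78, 6 and 17 without Arl13b-null 1, Arl13b-null 3, wild-type 2 and wild-type 3. Over 6 libraries they numbered 0, 214 with library weights and 4 without wild-type 1. With the replicate block, the median over members was 0.33 and the smallest member adjusted p was 0.9997. Deviations from the group means correlated at −0.71, −0.71 and 0.62 between libraries of the same number. In each group the library that stood apart weighs on the group mean and so on these signs. The values therefore cannot show whether the numbers pair the libraries. Whether depth limits the 5 members too low to test was not tested. The other members' intervals were computed from the spread between libraries, which includes counting noise.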

Other observations

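Coding length, from the GENCODE M21 annotation, went with how far members deviated in Arl13b-null 2. Against the wild-type 2 and 3 average, the median deviation was 1.14 for the 44 members with coding sequences under 450 bases, 0.80 for the 24 between 450 and 900 bases, and 0.36 for the 11 over 900 bases. Over all genes tested with a length, the medians were 0.51 for 813, 0.24 for 2582 and −0.22 for 10290 genes. Spearman's rho across the 79 members was −0.41, and across 13685 genes it was −0.20. Genes of 1 library share its depth and are not independent replicates. The rho across members was −0.11 in Arl13b-null 1, −0.070 in Arl13b-null 3 and −0.18 in wild-type 1. Across all genes it was −0.21 in Arl13b-null 1, 0.087 in Arl13b-null 3 and 0.029 in wild-type 1, so the trend over all genes was of like size in Arl13b-null 1 and 2.

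The members that were lower in Arl13b-null 2 than in the wild-type 2 and 3 average were Cox4i2, Ndufa4l2, Cox6b2, Sdha, Atp5g2, Sdhc and Ndufs1. Cox4i2 had 0 counts there, and the others were at 0.102, 0.194, 0.752, 0.789, 0.818 and 0.884 times the mean count of wild-type 2 and 3, in that order. The first 3 are tissue or condition forms of complex IV, and Sdha and Sdhc belong to complex II.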
